A study of Drosophila melanogaster with 7 samples.

Results

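Cells of Drosophila midgut tumors were compared by how many transcripts of the respiratory chain they carried. From the cells of 6 individually dissected tumors, each thinned to 300 UMIs (unique molecular identifiers, 1 per captured transcript), 3 classes of equal size were formed within each tumor, chosen by the number of respiratory UMIs, and called respiration-high, middle and respiration-low. The high and low classes held 1564 and 1564 cells of 9914 deposited in 7 libraries, and the middle class held 1571. The score counted 84 nuclear genes, those whose symbols start with ND-, COX, UQCR- or ATPsyn together with SdhA, SdhB, SdhC and SdhD. Their levels chose the cells and are given as a description only. All other genes were then compared between the UMIs summed over both classes of each tumor.

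The 7 libraries came from flies of 1 cross, which all groups share, with no untreated or wild-type gut beside them. The first parent carried the heat-shock recombinases HS-flp and HS-mflp5 in a yw background, the driver esg-gal4 with the reporter UAS-flybow, and Tub-Gal80 on an FRT82B chromosome. The other parent, also with HS-flp and yw, carried UAS-RasV12 and, on its FRT82B chromosome, the mutant alleles Apc2N175K and ApcQ8. Recombination was induced in adults 2 to 3 days after eclosion by 2 h at 37°C, and tumors were taken at least 21 days later. Cells that lost Gal80 are mutant for both Apc genes, and esg-gal4 drives RasV12 in them only while they express the progenitor driver esg. A dissected tumor can hold more than 1 clone and cells of the surrounding gut. The progenitor marker esg, whose driver defines the labeled cells, had UMIs in both classes of every tumor. Each of Tind1 to Tind6 is 1 tumor and Tgrp is a pool of 6 tumors, which was described beside the others without a test.

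Respiratory complexes I to IV pass electrons from NADH and succinate to oxygen, and complex V uses the resulting proton gradient to make ATP. Most of their subunits are nuclear genes translated in the cytosol, while a small core is encoded and translated in the mitochondrion. Intestinal progenitors and enterocytes both contain them, and glycolysis with lactate formation is the main other source of ATP.

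The deposited tables held 289733 to 5793326 UMIs per individual tumor and 6354105 in Tgrp, with a median of 268 to 2495 UMIs per cell among the tumors. After the filters on genes and mitochondrial UMIs, 5076 cells of the 6 tumors were kept. Tind4 and Tind5 shared 116 cell barcodes, while no other 2 libraries shared more than 3, and the 99 kept Tind5 cells concerned were left out. A further 278 cells of Tind3, Tind5 and Tind6 held fewer than 300 UMIs. Each class had 688, 296, 70, 256, 163 and 91 cells in Tind1 to Tind6, in that order.

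The score was low and coarse. Its median was 2 to 4 of 300 UMIs, and the highest cell had 13 to 21. The limit between the low and the middle class fell at 1 UMI inside and 1 outside in Tind3, Tind4 and Tind5, at 2 and 2 in Tind2 and Tind6, and at 3 and 3 in Tind1. The upper limit fell between 3 and 5 UMIs, with the same score on both sides in every tumor but Tind6, where it was 5 inside and 4 outside. Tied cells were split at random. In another random draw, 62.2% to 78.6% of the respiration-high cells of a tumor were respiration-high again and 3.12% to 9.46% were respiration-low.

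The UMIs that the draw left behind show how far the classes differed outside the noise of the draw. Respiratory genes made up 1.56% to 2.46% of these undrawn UMIs in respiration-high cells, 0.877% to 1.41% in the middle class and 0.506% to 1.07% in respiration-low cells. The ratio of high to low was 2.14 to 3.77 among tumors, against 5.30 to 15.8 in the drawn UMIs that set the classes. In Tgrp it was 2.99. By complex, the ratio in undrawn UMIs had a median over tumors of 2.27 for complex I, 2.67 for complex II, 1.99 for complex III, 2.71 for complex IV and 3.34 for complex V.

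**Figure D1:**
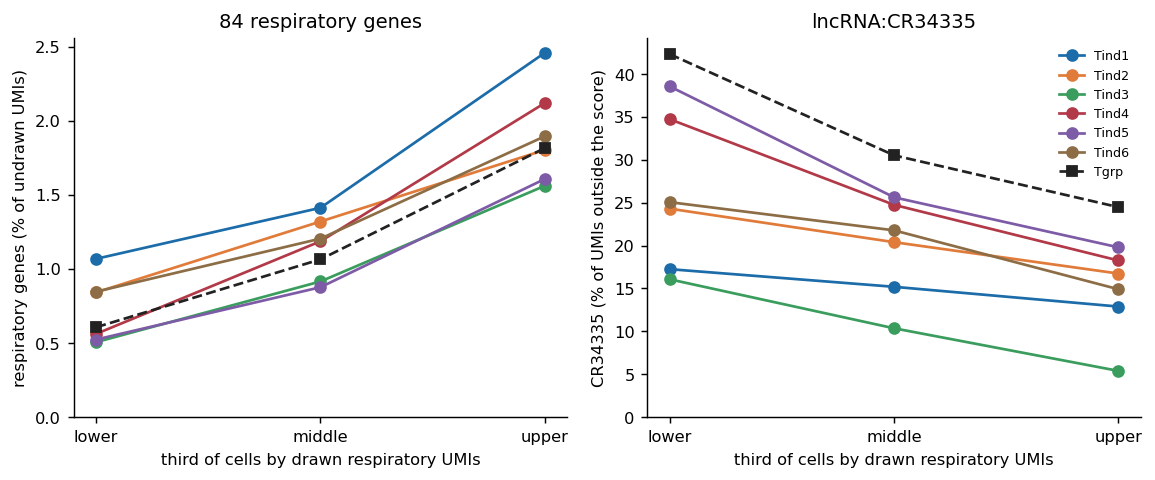
Left, share of undrawn UMIs (%) from the 84 respiratory genes in the low (lower), middle and high (upper) class of cells of each library. Right, share of UMIs outside the score (%) from lncRNA:CR34335 in the same classes. Solid lines are the 6 individual tumors and the dashed line is Tgrp. The respiratory share of the high class lay between 1.56% and 2.46%, and lncRNA:CR34335 fell from the low to the high class in all 7 libraries.

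To measure whether the complexes vary together, cells were classed again by the drawn UMIs of the 40 complex I genes alone, which leaves the subunits of complexes II to V outside the rule. Of 29 such subunits tested, 26 were higher in the cells high in complex I, against 207 of 2613 genes in all (7.92%). In the other direction 204 genes in all passed (7.81%, or 15.7% in both directions), and UQCR-C1 was the only subunit with a value below 0. The median log2 fold change of the 29 subunits was 0.68, against 0.03 over all genes tested. All 8 subunits of complex IV and all 11 of complex V passed, with 4 of 6 in complex III and 3 of 4 in complex II.

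ATPsynE, a small subunit of the ATP synthase, had 105, 219 and 343 CPM (UMIs outside the complex I genes scaled to a total of 1000000; lowest, median and highest of 6 tumors) in the cells low in complex I. In the cells high in complex I it had 394, 482 and 660 CPM. These plain ranges did not overlap. The log2 fold changes come from a fit that also sets the bulk of genes equal between sums (TMM scaling), which the CPM given here do not. For ATPsynE the log2 fold change was 1.00 ± 0.16 (SE, n = 6 tumors, edgeR adjusted p = 8.33e-05). For COX5A, a subunit of cytochrome c oxidase, the levels were 105, 189 and 242 CPM in low cells and 328, 435 and 478 CPM in high cells, again without overlap. Its log2 fold change was 0.89 ± 0.16 (edgeR adjusted p = 0.000258). SdhD, a membrane anchor of succinate dehydrogenase, differed by 0.97 ± 0.21 on the log2 scale (edgeR adjusted p = 0.00231). UQCR-C1, a core protein of complex III, stood apart with a log2 fold change of -0.03 ± 0.15 (edgeR adjusted p = 0.927). Without Tind1, which holds most of the UMIs, 15 of the subunits passed. Without the tumor as a block in the model 0 passed by edgeR, with 21 of 29 higher at an unadjusted p under 0.05, and DESeq2 with the block called 22.

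**Figure D2:**
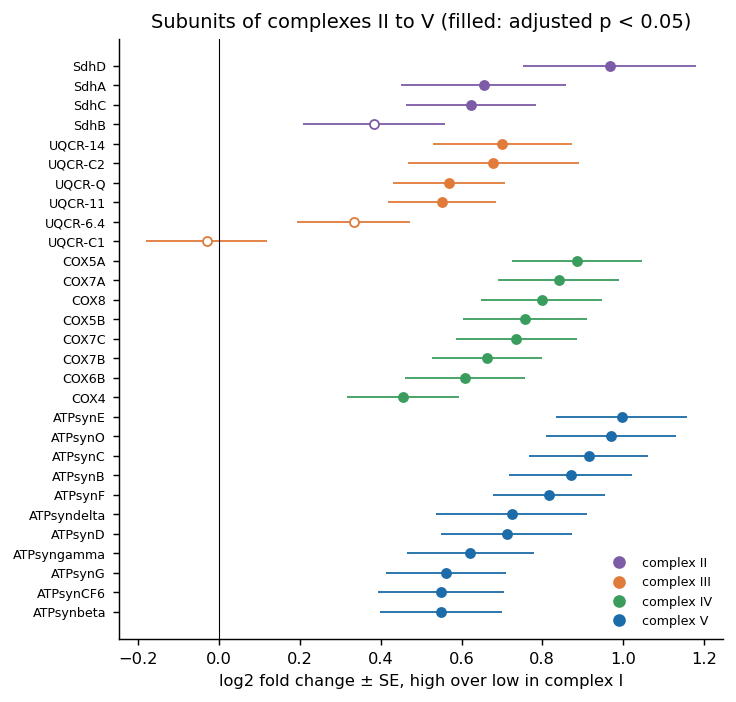
Log2 fold change with its standard error for 29 subunits of complexes II to V in cells high against cells low in complex I transcripts (6 tumors). Filled points passed an adjusted p of 0.05. All subunits but UQCR-C1 lie to the right of 0, and the largest value is 1.00 for ATPsynE.

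In the main comparison, 2562 genes outside the score were tested. Respiration-high cells had 320 genes higher (12.5%) and 405 genes lower (15.8%), which is 28.3% of genes in all. Counts of called genes in the lists below are to be read against these shares. The direction was the same in every tumor for 220 of the higher and 266 of the lower genes. The 6 high and the 6 low sums did not overlap for 53 of the higher and 48 of the lower genes, against 107 of all tested genes (4.18%). A change of more than 2-fold was seen for 137 higher and 175 lower genes. Within single tumors, 282 to 318 of the 320 higher and 354 to 404 of the 405 lower genes had the direction of their call. The fewest were in the small libraries Tind3 and Tind6. The calls come from a fit to these same tumors, so agreement in direction among them is partly built in and is a description only.

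In Tgrp, which took no part in the fit, 318 of the 320 higher genes were higher and 403 of the 405 lower genes were lower, relative to the median tested gene of that library. The middle class was compared by its mean share of UMIs outside the score, without the TMM scaling that the calls used. On this plain scale it lay between both classes for 305 of the 320 higher and 280 of the 405 lower genes. How far the scaling sets these counts was not tested.

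These counts rest on the tumor pairing and on the largest library. Without Tind1 the counts were 163 and 201, and without the tumor block they were 114 and 149. TMM scaling, which sets the bulk of genes equal between sums, also matters. With plain UMI totals in its place the counts were 796 higher and 152 lower, and the median tested gene was shifted by 0.36 on the log2 scale. Of the lower genes named in what follows, mt:ATPase6, mt:ATPase8, Ogdh, Hex-A, Men, Lsd-2, AsnS, RpS27, Non1, eIF4G2, Gp93 and sima were not called with plain totals.

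**Figure D3:**
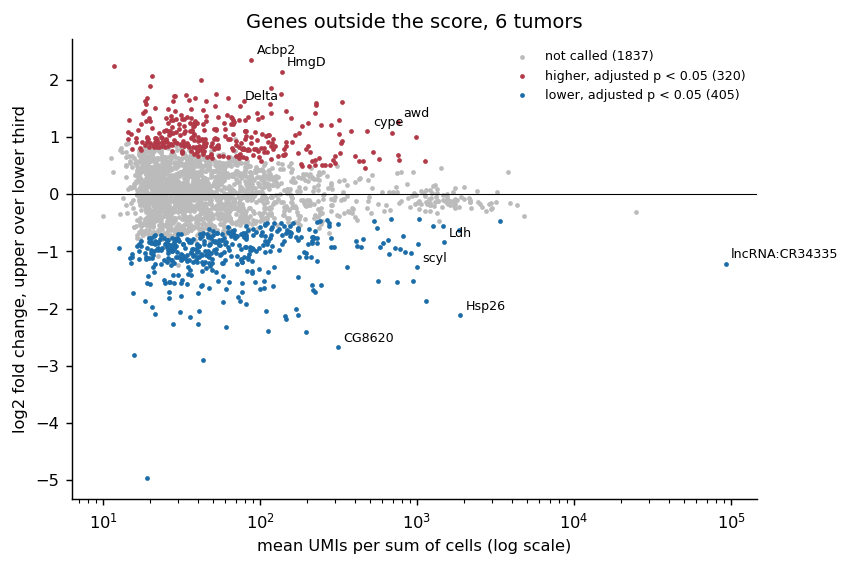
Log2 fold change of respiration-high over respiration-low cells for 2562 genes against their mean UMIs per sum (log scale), with genes that passed an adjusted p of 0.05 in color. Of these, 320 were higher and 405 lower, and lncRNA:CR34335 stands far to the right of all other genes.

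A single transcript took a large part of the UMIs, and a different part in both classes. The noncoding RNA lncRNA:CR34335 (FBgn0267910, X:3545750-3546110) was the most abundant feature of these libraries. It took 5.39% to 19.8% of the UMIs outside the score in respiration-high cells (mean of 6 tumors 14.7%), 10.4% to 25.6% in the middle class and 16.1% to 38.6% in respiration-low cells (mean 26.0%). In every tumor the order was low, middle, high from the largest to the smallest share, and Tgrp had 42.3%, 30.5% and 24.5%. The log2 fold change was -1.21 ± 0.23 (edgeR adjusted p = 0.000341). Since each cell was drawn to a fixed number of UMIs, the classes were also set from a draw without this transcript. It then took 15.3% to 34.1% in respiration-low and 5.11% to 20.6% in respiration-high cells, and the order held in every tumor. From this draw 295 genes were higher and 368 lower, of which 235 and 298 were also called in the main comparison. This gene and this alternative were chosen after the values were seen.

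Respiration-high cells were also deeper. Their median cell had more UMIs in 6 of 6 tumors, by 0.38 ± 0.39 on the log2 scale (SD, n = 6), and more genes in 6 of 6 tumors, by 0.58 ± 0.46. The exact two-sided sign-flip permutation test gave p = 0.03125 for each, the smallest that 6 tumors allow, and 0.046875 after adjustment over 3 measures. Tind4 stood apart with 3150.5 UMIs per median respiration-high cell against 1439 per median respiration-low cell, and without it the difference in UMIs was 0.23. Tind2 counted as higher with 1077 against 1073.5 UMIs, a log2 ratio of only 0.0047. The mitochondrially encoded share of UMIs was 6.52% to 11.4% in respiration-high and 6.87% to 9.45% in respiration-low cells, higher in 3 of 6 tumors (exact permutation p = 0.3125). When the classes were formed within 4 strata of cell depth, 363 genes were higher and 424 lower, and 298 and 377 of these were also called in the main comparison.

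Respiratory proteins whose symbols fall outside the score differed in the same direction. Of 8 such genes tested, 7 were higher, with a median log2 fold change of 1.16 against -0.01 over all genes tested. Levels are given from here on as TMM-scaled CPM outside the score. The gene cype (FBgn0015031, 2L:5327227-5327969), which encodes a subunit of cytochrome c oxidase, had 306, 398 and 708 CPM (lowest, median and highest tumor) in respiration-low cells and 774, 1002 and 1294 CPM in respiration-high cells. Every high value lay above every low value. Its log2 fold change was 1.11 ± 0.17 (SE, edgeR adjusted p = 3.38e-05). The complex III subunit ox was at 81.6, 169 and 261 CPM in low and 378, 558 and 716 CPM in high cells, also without overlap, a log2 fold change of 1.57 ± 0.20 (edgeR adjusted p = 3.23e-06). The cytochrome c oxidase subunit levy differed by 1.25 ± 0.20, and its ranges of 102 to 284 and 332 to 550 CPM did not meet.

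Subunits of the ATP synthase outside the score were sun, the epsilon subunit, with a log2 fold change of 1.62 ± 0.20, and blw, the alpha subunit, with 1.21 ± 0.17. In complex III, Cyt-c1 and RFeSP, the electron carriers of the complex, differed by 0.83 ± 0.23 and 0.67 ± 0.20. Cytochrome c itself did not pass the test. Cyt-c-p had 147, 368 and 449 CPM in low and 273, 395 and 506 CPM in high cells, and its log2 fold change was 0.35 ± 0.19 (edgeR adjusted p = 0.162). The testis form Cyt-c-d had no UMI in any sum. The complex I subunits NdufA3 and NdufV3, noticed after the values were seen, differed by 0.91 ± 0.20 and 1.28 ± 0.26.

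Part of the other nuclear genes of the mitochondrion was higher. The mitochondrial ribosome, which translates the mitochondrially encoded subunits, had 17 of 35 tested genes higher, and the other 18 did not pass (73 members, median log2 fold change 0.75). When cells with a drawn UMI of dividing markers were left out, fewer of these genes had enough UMIs and 1 of 9 passed. Among the 17, mRpL27 had 0, 18.4 and 37.5 CPM in low and 31.6, 67.2 and 86.7 CPM in high cells, and differed by 1.72 ± 0.29 (edgeR adjusted p = 0.000131). The values of mRpL54, mRpS14 and mRpL34 were 1.64 ± 0.33, 1.19 ± 0.27 and 1.23 ± 0.29. TFAM, which packages mitochondrial DNA, and mtSSB, which binds it as a single strand during replication, were 1.17 ± 0.33 and 0.99 ± 0.25 higher.

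The TCA cycle and pyruvate dehydrogenase, which supply the chain with NADH and succinate, had 7 of 13 tested genes higher and 1 lower (19 members, median 0.65). Malate dehydrogenase Mdh2 had 30.0, 99.6 and 150 CPM in low and 93.4, 255 and 412 CPM in high cells, a log2 fold change of 1.30 ± 0.24 (edgeR adjusted p = 0.000245). Its ranges overlapped between tumors, but it was higher in 6 of 6. Fumarase Fum1 differed by 1.32 ± 0.29 and aconitase mAcon1 by 0.97 ± 0.23. The gene called lower was Ogdh, the first component of the oxoglutarate dehydrogenase complex, at -0.74 ± 0.21 and lower in 6 of 6 tumors. Citrate synthase kdn did not pass, at 0.63 ± 0.27 (edgeR adjusted p = 0.0809).

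Among import factors and carriers, 5 of 18 tested genes were higher and 13 did not pass (22 members, median 0.42). Without cells with a drawn UMI of dividing markers 2 of 15 were higher. The ADP/ATP carrier sesB, which exports ATP from the mitochondrion, had 205, 332 and 542 CPM in low and 460, 711 and 915 CPM in high cells (log2 fold change 1.07 ± 0.19, edgeR adjusted p = 0.000148). The import components Tom7 and ttm50 and the cochaperone mge were called at 0.61 ± 0.20, 0.95 ± 0.30 and 0.86 ± 0.26. Of 2 tested assembly factors of 11 listed, the heme lyase Cchl was higher at 0.83 ± 0.28. A list of fatty acid oxidation, chosen after the values were seen, had 5 of 8 tested genes higher. Its lowest member was at -0.56 and did not pass. Without cells with a drawn UMI of dividing markers 2 of 6 genes of this list were higher. The list includes Echs1, an enoyl-CoA hydratase (1.69 ± 0.29), scu, a hydroxyacyl-CoA dehydrogenase (1.10 ± 0.30), and the electron transfer flavoproteins wal and Etfb.

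Transcripts of the mitochondrial genome itself did not follow as a group. Of 15 tested, 4 were higher and 2 lower, and their median was 0.04. The complex I genes mt:ND3, mt:ND6, mt:ND2 and mt:ND1 were higher by 0.85 ± 0.18, 0.69 ± 0.19, 0.60 ± 0.18 and 0.58 ± 0.18. The ATP synthase gene mt:ATPase6 had 2624, 4691 and 6282 CPM in low and 1687, 3057 and 4360 CPM in high cells, at -0.56 ± 0.16 (edgeR adjusted p = 0.00999). It was lower in 6 of 6 tumors. It overlaps mt:ATPase8, called at -0.77 ± 0.29, so their reads cannot be fully separated. The values of mt:ND1 and mt:ATPase8 were chosen for naming after they were seen. From the draw without lncRNA:CR34335, 1 of these 15 genes was higher and 3 were lower.

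Of the 12 genes of glycolysis 3 were lower, against 15.8% of all genes. Their median of -0.32 became 0.03 with plain UMI totals, where 2 were lower and 1 higher. Without cells with a drawn UMI of dividing markers 1 was lower and the median was 0.04. With classes formed within strata of cell depth 5 were lower (median -0.39). From the draw without lncRNA:CR34335 4 were lower (median -0.24). In Tgrp the median was -0.64. Aldolase Ald1 had 1002, 1602 and 3603 CPM in low and 632, 915 and 1831 CPM in high cells, a log2 fold change of -0.86 ± 0.18 (edgeR adjusted p = 0.000788). Lactate dehydrogenase Ldh (FBgn0001258, 3L:6259105-6262694), which turns pyruvate into lactate, had 1752, 2656 and 5678 CPM in low and 1108, 1796 and 2383 CPM in high cells. The ranges overlapped, Ldh was lower in 5 of 6 tumors and slightly higher in Tind4, and the log2 fold change was -0.84 ± 0.19 (edgeR adjusted p = 0.00186). Hexokinase Hex-A was called at -0.52 ± 0.17. Pyruvate kinase PyK had 419, 574 and 1167 CPM in low and 427, 608 and 691 CPM in high cells and was not called (-0.09 ± 0.20, edgeR adjusted p = 0.774).

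Genes of the lipid synthesis list included 2 called higher and 1 called lower. Fatty acid synthase FASN1 had 17.8, 78.3 and 149 CPM in low and 149, 172 and 490 CPM in high cells, higher in 6 of 6 tumors by 1.42 ± 0.26 (edgeR adjusted p = 0.000237). Acetyl-CoA carboxylase ACC, the enzyme before it, was higher by 1.13 ± 0.29. ATP citrate lyase ATPCL and the lipogenic regulator SREBP did not pass, at 0.30 ± 0.35 and -0.10 ± 0.18. The lipid droplet protein Lsd-2 was lower by 0.64 on the log2 scale (SE 0.23). In all, 2 of 9 tested genes of this list were higher and 1 was lower, out of 13 members, against 12.5% and 15.8% of all genes. Acbp2, an acyl-CoA binding protein, had the largest positive log2 fold change among genes with a mean of at least 30 UMIs per sum and the same direction in every tumor. It had 0, 33.8 and 127 CPM in low and 94.8, 205 and 468 CPM in high cells, a log2 fold change of 2.36 ± 0.30 (edgeR adjusted p = 2.98e-06). The fatty acid binding protein fabp, chosen after its values were seen, was higher by 1.42 ± 0.21.

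Among other metabolic genes, the serine hydroxymethyltransferase Shmt was higher by 1.11 ± 0.23 and the asparagine synthetase AsnS was called lower at -1.02 ± 0.28. They were 1 higher and 1 lower of 8 tested genes of amino acid metabolism (16 members), near the 12.5% and 15.8% of all genes. Malic enzyme Men, a source of NADPH, was the only called gene of 6 tested in the pentose phosphate and NADPH list (11 members), at -0.96 ± 0.28 and lower in 4 of 6 tumors. Glutamate dehydrogenase Gdh did not pass at 0.66 ± 0.27 (edgeR adjusted p = 0.0657). The glyoxalase Glo1, which detoxifies a side product of glycolysis, had 80.0 to 140 CPM in low and 161 to 240 CPM in high cells, without overlap, a log2 fold change of 0.79 ± 0.22. The 3 genes tested for glycogen, trehalose and gluconeogenesis (11 members) did not pass, and Pepck2 had too few UMIs to test.

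A list of chromatin proteins, chosen after the values were seen, had 6 of 7 genes higher with a median of 1.46. The choice shapes this count and median. Nlp, 1 of the 6, is also a member of the ribosome biogenesis list below. The high mobility group protein HmgD (FBgn0004362, 2R:21701458-21716727) had 65.2, 86.8 and 122 CPM in low and 252, 377 and 778 CPM in high cells. No tumor overlapped, and the log2 fold change was 2.15 ± 0.20 (edgeR adjusted p = 5.47e-08). Its neighbor HmgZ, which overlaps it on the other strand, differed by 1.77 ± 0.21. The histone chaperone Nph differed by 1.46 ± 0.22 and the chromatin protein Df31 by 1.59 ± 0.24. The nucleotide enzyme dUTPase had 50.0, 92.8 and 125 CPM in low and 237, 325 and 371 CPM in high cells, without overlap (1.86 ± 0.22, edgeR adjusted p = 1.30e-06). It belongs to the list for dividing cells, of which 3 of 11 tested genes were higher by edgeR and 8 did not pass (30 members, median 0.77). DESeq2 called 12 of the 30 members higher. The other genes of the list higher by edgeR were Top2, a topoisomerase, at 0.82 ± 0.22 and the replication inhibitor geminin at 0.95 ± 0.30.

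The summed level of the dividing list was 1244 to 3028 CPM without TMM scaling in respiration-high and 573 to 1596 CPM in respiration-low cells, higher in 6 of 6 tumors. Plain totals raised the median tested gene by 0.36 on the log2 scale. When every cell with a drawn UMI of this list was left out, 154 genes were higher and 186 lower, and 145 and 184 of these were also called in the main comparison. Core spliceosome proteins, a list chosen after the values were seen, had 4 of 6 genes higher, among them SmD2 at 1.42 ± 0.25 and SmD1 at 1.26 ± 0.25. SmE and SmF were at 1.05 ± 0.25 and 0.96 ± 0.25.

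Among markers of intestinal stem cells and enteroblasts, 3 of 12 tested genes were higher and 9 did not pass (16 members, median 0.20). The Notch ligand Delta, a stem cell marker, had 31.2, 71.8 and 171 CPM in low and 82.4, 127 and 686 CPM in high cells, higher in 6 of 6 tumors by 1.56 ± 0.25 (edgeR adjusted p = 5.20e-05). The transcription factors zfh2 and Sox21a were higher by 1.08 ± 0.30 and 0.80 ± 0.24. The driver gene esg, also chosen after its values were seen, had 85.0, 123 and 352 CPM in low and 153, 256 and 316 CPM in high cells and did not pass (0.35 ± 0.23, edgeR adjusted p = 0.267). The summed level of the list was 2672 to 3807 CPM without TMM scaling in high and 1718 to 3084 CPM in low cells, higher in 6 of 6 tumors. Its largest part was heca, with 4867 UMIs in high and 3033 in low cells. Plain sums were also higher in 6 of 6 tumors for the proteasome and for the pentose phosphate and NADPH list. The part of the stem cell and enteroblast list in the other differences was not tested.

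Markers of other cell types were measured in both classes. The 18 enterocyte markers summed to 383 to 2137 CPM in respiration-high and 255 to 2576 CPM in respiration-low cells, higher in 3 of 6 tumors. Most of these UMIs came from Ssk, a septate junction protein, with 2415 UMIs in high and 1726 in low cells. The 5 that were tested did not pass. Of the digestive enzymes, alphaTry had 48 UMIs in high and 1 in low cells, betaTry 36 and 1, and Jon65Aiv 21 and 2. Mal-A1 had 12 and 0, epsilonTry 10 and 0, and Amy-p 4 and 0. Each of these came from 1 to 3 tumors, and gammaTry, deltaTry, Jon25Biii and Jon99Cii had no UMI. The 13 enteroendocrine markers summed to 3.44 to 1572 CPM in high and 0 to 596 CPM in low cells. Most of these UMIs came from Orcokinin in high and from CCHa2 in low cells, and NPF had no UMI. The 13 visceral muscle markers summed to at most 298 CPM, 11 hemocyte markers to at most 167 CPM and 8 tracheal and fat body markers to at most 18.7 CPM in any sum. The muscle genes Mlc1, Act87E and sals, the hemocyte genes Hml, eater and PPO1 and the fat body genes Lsp2 and Yp1 had no UMI.

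Of 9 tested signaling genes of the Ras and EGFR pathway (11 members), 3 were higher and 2 lower, against 12.5% and 15.8% of all genes. The receptor Egfr, its ligand spi and the feedback inhibitor aos were higher by 1.23 ± 0.27, 0.87 ± 0.25 and 1.34 ± 0.33. Another feedback inhibitor, kek1, had 156, 601 and 1122 CPM in low and 34.3, 148 and 220 CPM in high cells, at -2.10 ± 0.20 (edgeR adjusted p = 5.64e-08). It was lower in 6 of 6 tumors, although the ranges overlapped. Ras85D, whose counts include the endogenous gene and may include the RasV12 transgene, had 778, 1807 and 2995 CPM in low and 1642, 1985 and 2915 CPM in high cells and was not called (0.39 ± 0.20, edgeR adjusted p = 0.137).

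Genes of the cytoskeleton included 5 of 19 higher and 1 lower (21 members, median 0.16). Actin Act42A had 101, 173 and 245 CPM in low and 259, 452 and 711 CPM in high cells, without overlap (1.33 ± 0.19, edgeR adjusted p = 1.56e-05). The cofilin tsr and the myosin heavy chain zip were higher by 0.60 ± 0.16 and 0.63 ± 0.16. Supervillin Svil, an actin-binding membrane protein, was called at -1.43 ± 0.25 and was lower in 6 of 6 tumors. Arpc2, a subunit of the Arp2/3 complex, did not pass at 0.13 ± 0.27.

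Of 84 cytosolic ribosomal protein genes tested (93 members), 2 were higher and 1 lower, with a median of -0.12 that became 0.22 with plain UMI totals. They were RpL34a at 0.51 ± 0.18, RpS15Ab at 0.98 ± 0.30, a near copy of another gene whose reads it may share, and RpS27 at -0.46 ± 0.16. Translation factors had 3 of 39 tested genes higher and 3 lower (51 members). The initiation factors eIF4G2 and eIF4H1 were at -0.96 ± 0.24 and 0.75 ± 0.20, without overlap between classes, and eEF1delta and eEF1beta were higher by 0.76 ± 0.23 and 0.51 ± 0.18. Proteasome subunits had 2 of 31 higher, Prosbeta6 and Rpn12, and 29 that did not pass (48 members, median 0.34). With plain UMI totals 23 of the 31 were higher and the median was 0.73, while the median of all genes was then 0.36. The vacuolar ATPase had 2 of 15 higher, Vha14-1 and Vha36-1 (33 members), near the 12.5% of all genes. In ribosome biogenesis 4 of 13 genes were higher and 2 lower (16 members). The snoRNP protein NHP2 and the nucleoplasmin Nlp were higher by 1.36 ± 0.30 and 0.79 ± 0.21, while Non1, a nucleolar GTPase, was at -0.56 ± 0.17.

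The growth regulator Myc, which sits in that list, went the other way. It had 311, 957 and 1734 CPM in low and 217, 290 and 484 CPM in high cells, at -1.59 ± 0.20 (edgeR adjusted p = 3.73e-06). It was lower in 6 of 6 tumors.

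Heat-shock genes were lower as a group. All 10 tested members were lower in respiration-high cells (15 members, median -1.66). With plain UMI totals 8 were lower and the median was -1.29. The small heat-shock protein Hsp26 (FBgn0001225, 3L:9376418-9377427) had 2359, 5621 and 8853 CPM in low and 363, 1119 and 2622 CPM in high cells, at -2.12 ± 0.21 (edgeR adjusted p = 1.09e-07). The next, Hsp23, had 1922, 3617 and 9080 CPM in low and 546, 967 and 2003 CPM in high cells, at -1.87 ± 0.19. Both were lower in 6 of 6 tumors, with a slight overlap between the lowest respiration-low and the highest respiration-high tumor. Hsp68 had 170, 589 and 1061 CPM in low and 60.1, 129 and 271 CPM in high cells, lower in 6 of 6 tumors. The cochaperone DnaJ-1 was at -1.64 ± 0.21 and stv, a cochaperone of Hsp70, at -1.92 ± 0.26. The heat-shock noncoding RNA lncRNA:Hsromega, chosen after its values were seen, had 996, 1714 and 2899 CPM in low and 537, 586 and 752 CPM in high cells, without overlap (-1.51 ± 0.17). Hsp70Bc was at -1.67 ± 0.25, but near-identical Hsp70 copies can share its reads. The chaperone Hsp83, which most cells use, was at -1.05 ± 0.17. Of this list stv, Hsp70Bc and Hsp83 were chosen after their values were seen.

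The summed heat-shock list was 4990 to 20431 CPM without TMM scaling in low and 2118 to 9222 CPM in high cells, lower in 6 of 6 tumors. An alternative chosen after the values were seen left out cells with at least 2 drawn UMIs of this list before the classes were formed. It gave 244 genes higher and 225 lower. Of these 210 and 214 were also called in the main comparison, 3 of 4 heat-shock genes still tested were lower, and 7 of 8 respiratory genes outside the score were higher. A feature named recombinase, which matches no FlyBase gene, was lower as well. It had 10.0, 127 and 214 CPM in low and 3.81, 22.2 and 87.8 CPM in high cells and was at -1.81 ± 0.29 (edgeR adjusted p = 5.27e-05). The genotype carries recombinase genes under a heat-shock promoter, and the feature was chosen after its values were seen.

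In the list of wound and JNK genes, 8 of 10 tested genes were lower (13 members, median -1.04). With plain UMI totals 5 were lower and the median was -0.66, and without cells with a drawn UMI of dividing markers 4 were lower. Gadd45, a stress-induced growth arrest gene, had 358, 647 and 2105 CPM in low and 99.6, 150 and 314 CPM in high cells, without overlap (-2.18 ± 0.20, edgeR adjusted p = 5.47e-08). The cytokines upd3 and upd2, which activate JAK/STAT signaling, were at -1.50 ± 0.29 and -1.53 ± 0.30, and the transcription factor Ets21C at -1.35 ± 0.25. Of genes for cell death and the p53 and Xrp1 response, a list chosen after the values were seen, 3 of 4 tested were lower. They were hid at -1.73 ± 0.25, p53 at -1.79 ± 0.26 and Xrp1 at -0.93 ± 0.17.

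Of the low-oxygen list, 4 of 5 tested genes were lower (7 members, median -1.28). The paralogs scyl and chrb, which restrain TOR signaling, did not overlap between classes. The first had 1927, 2780 and 3351 CPM in low and 706, 1151 and 1739 CPM in high cells (-1.28 ± 0.17, edgeR adjusted p = 3.98e-06). The second was at -1.58 ± 0.19. The FGF ligand bnl, which draws tracheal branches, had 110, 229 and 542 CPM in low and 15.8, 96.9 and 149 CPM in high cells (-1.38 ± 0.24, edgeR adjusted p = 0.000169), and sima, the HIF alpha subunit, was at -0.67 ± 0.23. Ferritin, a list of genes chosen after the values were seen, had both tested subunits lower, with Fer1HCH at -1.01 ± 0.17 and Fer2LCH at -0.96 ± 0.16.

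Antioxidant genes differed in both directions. Of 22 tested, 5 were higher and 10 lower (49 members), with a median of -0.35 that became 0.01 with plain UMI totals. The higher genes included the mitochondrial superoxide dismutase Sod2, with 27.5 to 109 CPM in low and 115 to 221 CPM in high cells (1.14 ± 0.25), the cytosolic Sod1 (0.90 ± 0.22) and the mitochondrial peroxiredoxin Prx3 (1.18 ± 0.30). The glutathione transferases GstE12 (1.11 ± 0.29) and GstO2 (0.87 ± 0.28) were higher too. These 5 genes, and cnc, were chosen after their values were seen. The lower genes were led by GstD5, with 171, 493 and 775 CPM in low and 43.9, 110 and 237 CPM in high cells (-2.13 ± 0.21, edgeR adjusted p = 1.09e-07). The glutathione transferase GstD2 was at -1.51 ± 0.26, the glutathione synthesis subunit Gclm at -1.17 ± 0.23 and the thioredoxin reductase Trxr1 at -0.85 ± 0.16. Their known activator cnc, the fly Nrf2, had 249 to 392 CPM in low and 114 to 217 CPM in high cells (-0.91 ± 0.18, edgeR adjusted p = 0.000623). GstD genes lie in a cluster of similar copies, so reads may be shared among them.

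In the endoplasmic reticulum list, 1 of 11 genes was higher and 2 lower, with a median of -0.28 that became 0.08 with plain UMI totals. The chaperone Hsc70-3 was at -0.92 ± 0.21 and Gp93 at -0.61 ± 0.20, lower in 5 and 4 of 6 tumors, and the translocon subunit Sec61alpha was at 0.68 ± 0.24. The 3 tested metallothioneins did not pass (6 members).

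**Figure D4:**
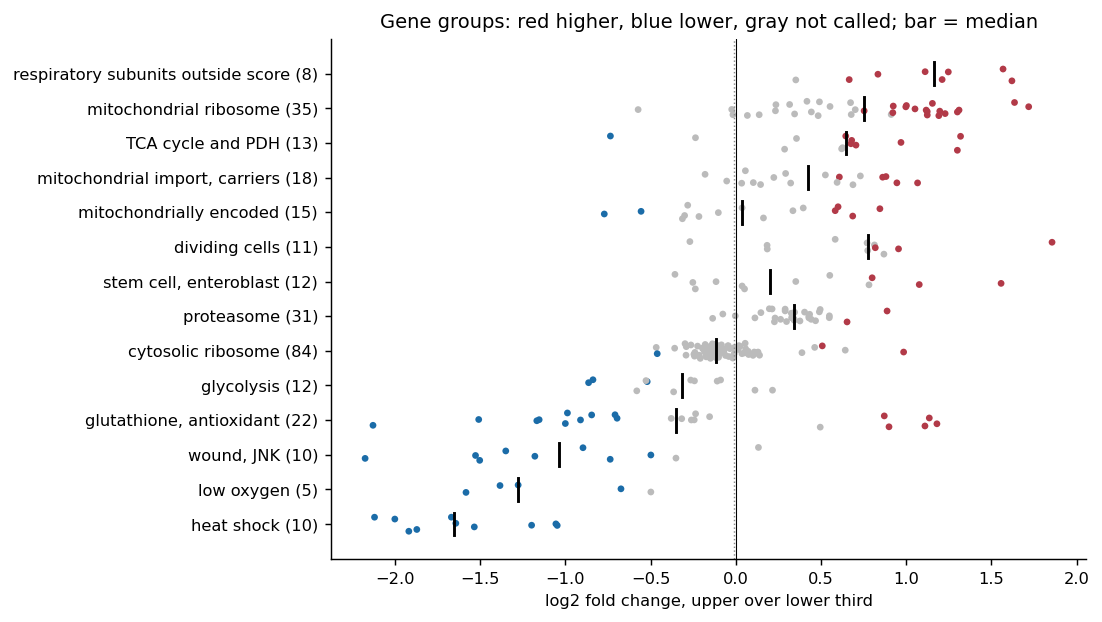
Log2 fold change of each tested gene of 14 gene groups, with the number tested in parentheses, the group median as a bar and the median of all tested genes (-0.01) as a dotted line. Red genes were higher and blue genes lower at an adjusted p of 0.05. The heat-shock group lies furthest to the left (median -1.66) and respiratory subunits outside the score furthest to the right (1.16).

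The other genes with the largest differences were on none of these lists. Higher in respiration-high cells were CG6180 (2.00 ± 0.35), the membrane lipid scramblase scramb2 (1.75 ± 0.27), CG11858 (1.74 ± 0.30), the peroxiredoxin Prx4 (1.69 ± 0.25), CG17272, CG34232 and CG44242 (1.63 to 1.65) and the importin Pen (1.58 ± 0.26). The ends of scramb2 and Prx4 overlap on opposite strands. Prx4, a peroxiredoxin like Prx3, was not a member of the antioxidant list and is not in its counts. Lower were CG13024 (-2.91 ± 0.34), CG8620 (-2.68 ± 0.22), lncRNA:noe (-2.41 ± 0.34), the BMP-binding protein cv-2 (-2.40 ± 0.25), the myoblast fusion adaptor rols (-2.32 ± 0.24), lncRNA:CR44717 (-2.27 ± 0.26), the chitinase Cht4 (-2.15 ± 0.33), CG2065 (-2.07 ± 0.29), CG45061 (-2.04 ± 0.24) and rdog (-2.04 ± 0.26). CG8620 had 249, 1028 and 3068 CPM in low and 103, 178 and 500 CPM in high cells (edgeR adjusted p = 5.96e-09). The gene cv-2 had 187, 422 and 1189 CPM in low and 40.6, 78.1 and 154 CPM in high cells, without overlap. The largest value of all was that of lncRNA:CR43855, which fell under the limit of 30 UMIs per sum that the naming rule set and was chosen after its values were seen. It had 48.9, 95.3 and 242 CPM in low and 0, 1.00 and 7.63 CPM in high cells (-4.97 ± 0.37, edgeR adjusted p = 1.62e-09). Among abundant genes chosen after their values were seen, the nucleoside diphosphate kinase awd had 505, 558 and 1136 CPM in low and 1305, 1520 and 2094 CPM in high cells (1.27 ± 0.18). The capsid-like protein Arc1 had 2160, 3085 and 4272 CPM in low and 887, 1715 and 2117 CPM in high cells (-1.02 ± 0.16). Neither overlapped between classes.

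**Figure D5:**
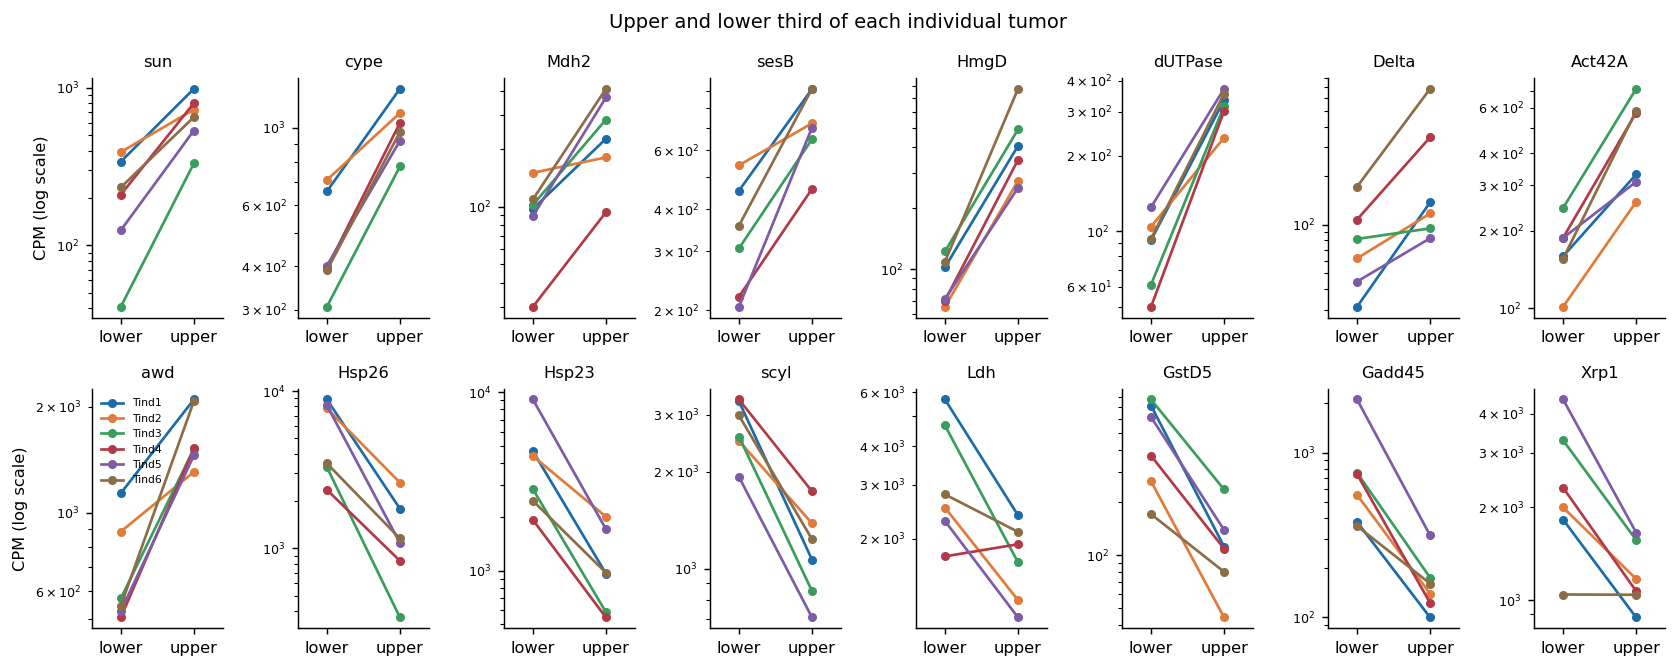
TMM-scaled CPM outside the score (log scale, different range in each panel) of 16 genes in respiration-low (lower) and respiration-high (upper) cells, 1 line per individual tumor. In the first 9 panels every line rises, and in the remaining panels every line falls except that of Ldh in Tind4 and that of Xrp1 in Tind6, which is nearly level.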

How the data were processed

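Single-cell RNA was captured with the Chromium 3′ v3.1 chemistry and sequenced on a NextSeq 2000. The authors aligned and counted the reads with Cell Ranger 6.0.1 against the Drosophila genome r6.42 and deposited, for each of 7 libraries, UMI counts of every gene in every cell, all of them whole numbers. Gene positions were taken from the Ensembl annotation of the release 6 assembly, in which 17556 of 17619 features had a symbol. No doublet caller was run.

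Cells with 100 to 2000 genes and at most 15% mitochondrial UMIs were kept and drawn once, without replacement, to 300 UMIs, and 3 classes of equal size were set within each tumor with ties split at random. Full UMI counts outside the score were summed per tumor and class, which gave 12 sums of 48263 to 1787652 UMIs with the score included. edgeR 4.0.16 (R 4.3.3) fitted its quasi-likelihood model with the tumor as a block, since both sums come from the same tumor, with TMM scaling and filterByExpr, and p-values were adjusted by Benjamini-Hochberg over all tested genes with a threshold of 0.05. The standard error is the log2 fold change divided by the root of the F statistic. DESeq2 1.42.0 was an alternative. On simulated counts of 2562 genes, 200 genes were changed by 1 on the log2 scale between high and low cells. Of the changed genes 77.5% were recovered, and 4.91% of the calls were false. The simulated tumors did not differ from each other, so these values do not measure recovery in the real sums. The 6 tumors are the replicates, and the spread of sums includes counting error, which is larger in the shallow libraries Tind3 and Tind6. Depth per cell was compared by an exact sign-flip permutation test over the tumors (Python 3.11.15, scipy 1.17.1).

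Named genes were the 15 largest rises and 15 largest falls among genes past the threshold, with 1 direction in all 6 tumors and a mean of at least 30 UMIs per sum, up to 4 called members of each list by adjusted p, the tested genes that the study names and the respiratory genes outside the score. Others are marked as chosen after their values were seen. For lists marked in this way, the count of called members and the median follow in part from the choice and are a description only. The members and lists were chosen with earlier results of these data known. Alternatives were other draws, class limits, filters, scalings and tools, and leaving out each tumor.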

Additional observations from a re-analysis of the deposited data

Results flagged for a closer look

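Among 132 values tested for a tumor far from the other 5 (Dixon's ratio), 10 stood out. Chance alone flags about 1 in 20 such groups. Tind4 had the highest log2 ratio of median UMIs per cell between respiration-high and respiration-low cells (1.13) and of median genes per cell (1.49), and of Shmt (2.08). Tind6, 1 of the shallow libraries, had the highest log2 ratio of CG44242 (4.45), Df31 (4.02), ACC (2.99), DnaJ-1 (-0.24) and lncRNA:CR44717 (-0.30). Tind3 had the lowest of Cht4 (-4.09) and Tind5 the lowest of eIF4G2 (-1.88). On the TMM-scaled levels all 8 genes had the same direction in the 6 tumors, but part of this rests on very few UMIs. CG44242 and ACC had no UMI in respiration-low cells of Tind6. Cht4 had none in respiration-high cells of Tind3, Tind5 and Tind6. Such log2 ratios are finite only through a constant added to the levels, so their size is not a measurement. The direction of lncRNA:CR44717 in Tind6 also rests on very few UMIs and is not secure.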

How the results depend on the processing

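No gene called in any alternative had the opposite call in the main comparison. The count of higher genes, 320, became 114 without the tumor block, 796 with plain UMI totals, 211 with tied cells left out and 154 without cells that had a drawn UMI of dividing markers, and 163 to 340 when 1 tumor was left out. The count of lower genes, 405, became 149 without the block, 152 with plain totals, 241 without ties, 186 without dividing-marker cells, 263 without the deepest 10% of cells, 225 without heat-shock-marker cells and 201 to 416 when 1 tumor was left out. The causes were not tested. Plain totals remove the centering on the bulk of genes, and fewer genes were tested without ties (1798), without dividing-marker cells (1900) or without heat-shock-marker cells (1685). The 26 subunits higher in cells high in complex I became 0 without the tumor block, and 15 to 26 when 1 tumor was left out. Leaving out heat-shock-marker cells, or lncRNA:CR34335 with or without mitochondrial genes from the draw, was chosen after seeing the data.

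The difference in median UMIs per cell kept its direction but no longer passed with 4 classes in place of 3 (0.41), a mitochondrial limit of 10% (0.24), no dividing-marker cells (0.36) or no cells of the deepest 10% (0.29), and was 0.23 to 0.45 with 1 tumor left out, where 5 tumors allow no p below 0.0625. For median genes per cell these values were 0.63, 0.48, 0.57 and 0.52, and 0.40 to 0.64. The difference in mitochondrial share turned to -0.034 with lncRNA:CR34335 out of the draw. Of the named genes, SREBP and PyK, neither of them called, changed sign. SREBP was at 0.25 with plain totals, 0.0029 with 4 classes, 0.049 without ties, 0.086 with the 10% limit and 0.12 without dividing-marker cells, and between -0.16 (without Tind3) and 0.047 (without Tind1) with 1 tumor left out. PyK was at 0.25 with plain totals, 0.10 in the second draw, 0.18 with the 10% limit, 0.071 without dividing-marker cells, 0.038 without the deepest 10% and 0.017 with lncRNA:CR34335 out of the draw, and between -0.24 (without Tind4) and 0.079 (without Tind6) with 1 tumor left out. RpL34a, Sec61alpha, sima and Vha36-1 lost their call in 13 of 25 alternatives each.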
